A study of Mus with 6 samples.

Results

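The 7 noncoding RNAs in question, all made by RNA polymerase III, were followed through 6 mouse liver libraries: the 7SL genes Rn7s1 and Rn7s2, the 7SK gene Rn7sk, the RNase MRP and RNase P RNA genes Rmrp and Rpph1, and the Y RNA genes Rny1 and Rny3. These 7 of the 48882 listed genes were chosen by name, after high 7SL values had been seen in 2 of the 3 knockout libraries. Of the 7, 5 had a mean of at least 0.5 TPM over the 6 libraries, the filter used for all genes, and Rny1 and Rny3 did not. The differences between the groups are therefore given as a description. The members that were abundant enough entered the fit over all genes and are called tested in that sense, but no p is given for them. The groups were 3 liver libraries labelled FABP4-/-, without the fatty acid-binding protein gene Fabp4, and 3 labelled WT, from littermates. Every animal, controls included, had been fed a Lieber-DeCarli ethanol liquid diet for 8 weeks with 1 ethanol binge, a model of alcoholic steatohepatitis. Age, sex, strain background and the kind of Fabp4 allele were not given in the sources used here, and mice without ethanol were not analysed here. The replicates are numbered without a statement that each is a separate animal, so that the spread between them may be technical.

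Polymerase III transcribes short, abundant RNAs that work as the core of ribonucleoprotein particles and that end in a run of uridines instead of a poly(A) tail. 7SL is the scaffold of the signal recognition particle, which brings ribosomes making secreted proteins to the endoplasmic reticulum, a heavily used route in hepatocytes. 7SK holds the transcription elongation kinase P-TEFb in an inactive complex. RNase P RNA cuts the leader from precursor transfer RNAs, RNase MRP RNA works in ribosomal RNA processing, and Y RNAs bind the Ro60 and La proteins. All 7 genes lie in the mm10 build as short transcription units. Rn7s1 (chromosome 12, 69159295 to 69159593, plus strand) and Rn7s2 (chromosome 12, 69361183 to 69361481, minus strand) are both 299 bases long. Rn7sk is 332 bases long (chromosome 9, 78175302 to 78175633), Rmrp 275 (chromosome 4, 43492785 to 43493059) and Rpph1 325 (chromosome 14, 50807447 to 50807771), all on the minus strand. Rny1 is 111 bases long (chromosome 6, 47788070 to 47788180, minus strand) and Rny3 101 (chromosome 6, 47781624 to 47781724, plus strand). The file's gene types are scRNA, snRNA, RNase_MRP_RNA, RNase_P_RNA and Y_RNA, and each position equals that of the same gene in RefSeq's GRCm38.p6 table.

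Levels are in TPM, a transcript share corrected for transcript length, and a library with no value for a gene was taken as 0. Depth is unknown, so no counting interval can be given. The libraries held values for 20664 to 21438 genes. Wild type replicate 2 lay apart on the first principal component (-38.1, the others between -2.50 and 22.3) and knockout replicate 1 on the second (-30.8, the others between -5.92 and 21.8). Fabp4, the targeted gene, stood at 14.7, 8.15 and 19.96 TPM in WT livers and was listed at 0 in the 3 knockout libraries (adjusted p 0.0168, limma with Benjamini-Hochberg adjustment), the only gene of 14155 past the threshold, 0.00706% of those tested. That call was lost at a pseudocount of 5 (adjusted p 0.209), without a filter (0.145), with the replicate number as a block (0.0820), and without wild type replicate 1 (0.176), knockout replicate 1 (0.0922) or knockout replicate 2 (0.157), all in limma. Summed over 8 markers, hepatocyte RNA lay between 22224 and 27908 TPM in wild type and between 21566 and 26139 TPM in the knockout. In whole liver RNA, fewer cells of a type and less RNA per cell cannot be told apart.

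7SL was the member that differed most between libraries. Rn7s2 read 24.7, 42.5 and 19.3 TPM in wild type, given here and throughout in the order of replicates 1, 2 and 3. It read 2252, 1878 and 41.6 TPM in the knockout. Knockout replicates 1 and 2 were high, and knockout replicate 3 lay just under wild type replicate 2, so the groups overlapped. Rn7s1 was at 6.84, 19.3 and 7.30 TPM in WT livers and at 702, 615 and 14.2 TPM in the knockout livers, again with 2 high libraries and an overlap in the third. For Rn7s2 the lower of the high libraries was 44.2 times the next value, and for Rn7s1 31.8 times. The high libraries lay close to each other, with knockout replicate 1 above knockout replicate 2 by 1.20 times for Rn7s2 and 1.14 times for Rn7s1.

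**Figure D1:**
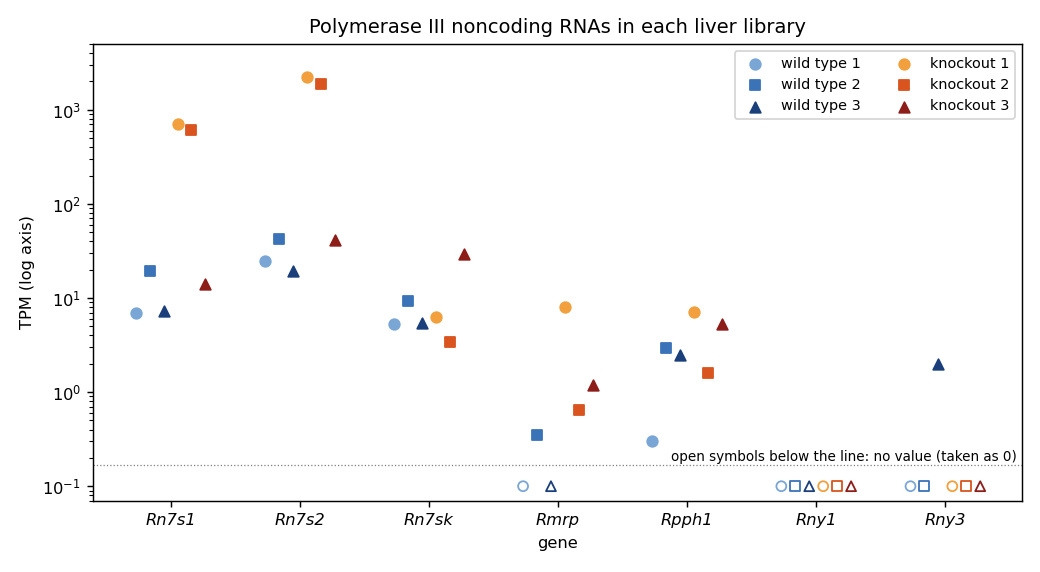
TPM (log axis) of the 7 genes in each of the 6 libraries; blue symbols are wild type, orange to red symbols knockout, and open symbols under the dotted line have no value. Rn7s1 and Rn7s2 stand high in knockout replicates 1 and 2 (615 to 2252 TPM), Rn7sk in knockout replicate 3 (29.3 TPM), and Rny1 has no value in any library.

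The group means carried this split. The mean of Rn7s2 was 28.8 ± 12.1 TPM (SD, n = 3 libraries) in wild type against 1391 ± 1183 TPM (SD, n = 3 libraries) in the knockout. Its log2(TPM + 1) difference, knockout minus wild type, was 4.32 (SE 1.37). For Rn7s1 the means were 11.2 ± 7.07 TPM (SD, n = 3) against 444 ± 374 TPM (SD, n = 3), and the difference was 4.09 (SE 1.35). Without knockout replicate 3 these differences were 6.18 and 5.91. With knockout replicate 3 as the single knockout library, a setting chosen once the values were known, they were 0.59 and 0.47. The size of the difference followed which knockout libraries were in the mean.

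In rank, a measure that normalization across libraries hardly touches, Rn7s2 was the 50th most abundant gene of knockout replicate 1 and the 59th of knockout replicate 2. In the other 4 libraries it stood between the 2167th and the 3835th place. Rn7s1 was 188th and 211th in the high libraries and between 3880th and 7080th elsewhere. Among the 14155 genes tested, Rn7s2 and Rn7s1 had the largest and second largest SD between the knockout libraries (3.23 and 3.14 on the log2(TPM + 1) scale). Their ranges over all 6 libraries, 6.79 and 6.49, ranked 3 and 4, after the metallothionein gene Mt2 (7.55) and the steroid hydroxylase gene Cyp3a41a (6.87). Within wild type the SDs of Rn7s2 and Rn7s1 were 0.56 and 0.77, which put them 878th and 346th. The median range of all genes tested was 0.58.

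**Figure D2:**
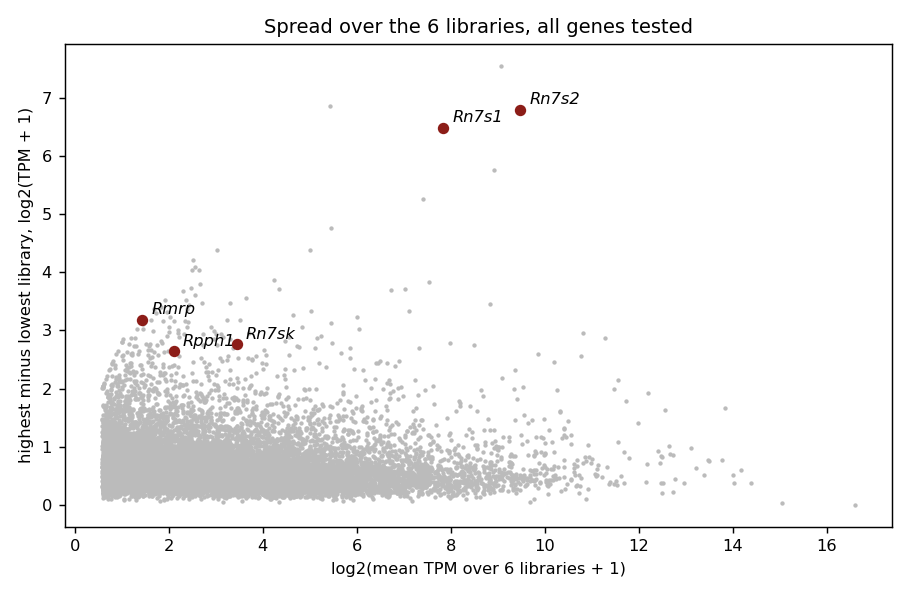
Range over the 6 libraries (highest minus lowest log2(TPM + 1)) against log2(mean TPM + 1) for the 14155 genes tested, grey, with the 5 tested polymerase III RNAs in red. Rn7s1 and Rn7s2 lie near the top at 6.49 and 6.79, while Rmrp, Rn7sk and Rpph1 lie between 2.64 and 3.18.

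Both 7SL copies moved together. Rn7s2 was the higher copy in all 6 libraries. Rn7s1 made up 21.7%, 31.2% and 27.4% of the summed 7SL level in wild type replicates 1, 2 and 3, and 23.8%, 24.7% and 25.5% in knockout replicates 1, 2 and 3. The 2 genes are near-identical copies that can share reads, so their separate values are uncertain and the sum is the firmer quantity. Summed, 7SL was 0.290% and 0.251% of all TPM in knockout replicates 1 and 2, and between 0.00270% and 0.00621% in the other 4 libraries.

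The protein side of the signal recognition particle did not show this pattern. The summed TPM of Srp9, Srp14, Srp19, Srp54a, Srp54c, Srp68 and Srp72 was 339, 434 and 313 in wild type and 380, 326 and 344 in the knockout. Per length, 7SL thus stood at 0.0849 to 0.143 times the summed protein mRNAs in wild type and at 0.162 in knockout replicate 3, against 7.78 and 7.64 in knockout replicates 1 and 2. Of the 10 genes for the particle's proteins and its receptor, 9 passed the abundance filter (a mean of 0.5 TPM) and 0 passed the test in limma (smallest adjusted p 0.826; 0 at an unadjusted p under 0.05). The receptor gene Srpr averaged 159 TPM in wild type and 136 TPM in the knockout (log2 difference -0.20, SE 0.18), and Srp19, which helps to assemble the particle, 46.3 and 39.1 TPM (-0.25, SE 0.24). Srp54a and Srprb had log2 differences of -0.15 (SE 0.25) and 0.10 (SE 0.23). Srp54b, at most 0.162 TPM, was too low to test. The 12 genes of the translocon, the channel that the particle delivers ribosomes to, gave the same count of 0, with Tram1 (0.28, SE 0.16), Sec61g (-0.23, SE 0.19), Tram2 (-0.28, SE 0.26) and Ssr3 (0.17, SE 0.20) having the smallest p-values.

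Genes beside the 7SL loci were also measured. The 2 copies lie 201589 bases apart, and 11 other genes within 250 kb of either copy were abundant enough to test. Rps29, a ribosomal protein gene that starts 109 bases from Rn7s1 on the opposite strand, was at 271, 364 and 281 TPM in WT livers and at 351, 273 and 314 TPM in the knockout livers. Its groups overlapped, and its level in knockout replicate 2 was near the lowest. Nemf, a ribosome quality control gene that lies 4007 bases from Rn7s2, was at 19.7, 22.7 and 19.2 TPM and at 23.2, 21.1 and 22.6 TPM. The largest range of any of the 11 was 0.81, for the DNA polymerase epsilon gene Pole2, against over 6 for the 7SL copies. None of the 11 passed the limma test (smallest adjusted p 0.579), and 1, Pole2, had an unadjusted p under 0.05. Of the 11, 10 had a positive difference, as did 8125 of all 14155 genes tested.

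**Figure D3:**
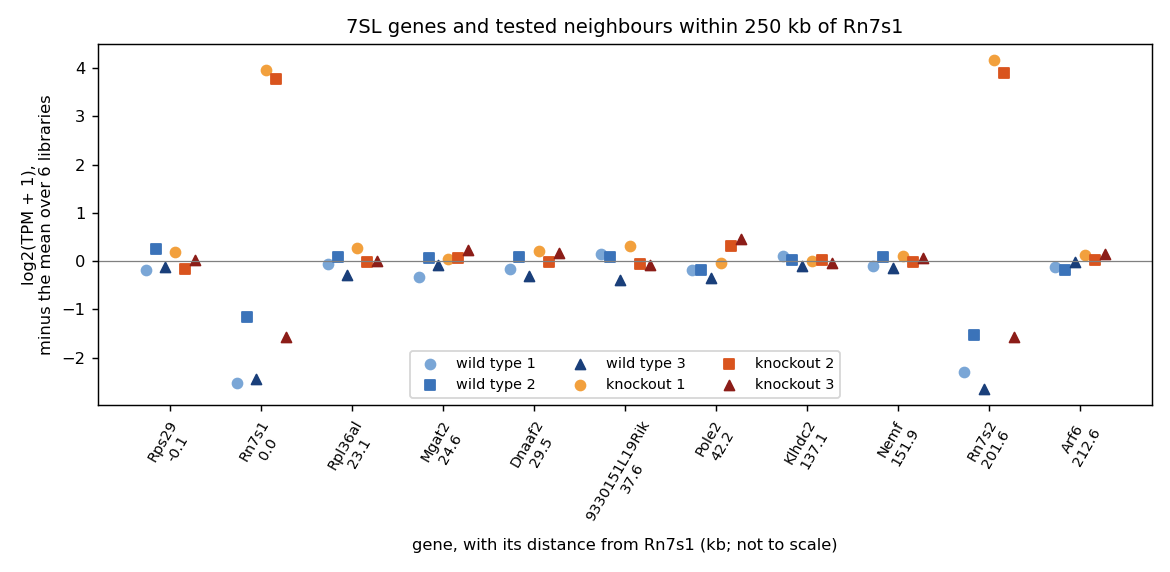
Centred log2(TPM + 1), with each gene's average over all libraries set to 0, for Rn7s1, Rn7s2 and the 9 other tested genes within 250 kb of Rn7s1, in order of position; the number under each name is the distance from Rn7s1 in kb. Only the 7SL copies stand apart in knockout replicates 1 and 2, and the other genes plotted have ranges of at most 0.81.

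7SK, the RNA that restrains P-TEFb, was high in a different library. Rn7sk was at 5.33, 9.36 and 5.42 TPM in WT livers and at 6.26, 3.45 and 29.3 TPM in the knockout livers. Knockout replicate 3 stood at 3.13 times the next library, while knockout replicate 2 was the lowest of all 6, so the groups overlapped. The means were 6.70 ± 2.30 TPM (SD, n = 3) and 13.0 ± 14.2 TPM (SD, n = 3), with a log2 difference of 0.41 (SE 0.63) that became -0.40 without knockout replicate 3. Rn7sk was the lowest of its knockout values where Rn7s2 was at 1878 TPM, and the highest where Rn7s2 was at 41.6 TPM. Where Rn7s2 was highest (2252 TPM, knockout replicate 1), Rn7sk lay between these values. Within wild type both were highest in replicate 2 (42.5 TPM for Rn7s2 and 9.36 TPM for Rn7sk).

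The 7 protein genes of the 7SK particle and P-TEFb were all tested, and 0 passed in limma (1 higher and 0 lower at an unadjusted p under 0.05, where 5.12% and 2.91% of all genes tested did so). Those shares depend on scaling: 725 genes were higher and 412 lower, but 565 and 530 after median scaling. Hexim1, whose product binds 7SK and blocks the kinase, was the 1. It was at 14.0, 13.4 and 19.0 TPM in WT livers and at 25.4, 18.3 and 24.7 TPM in the knockout livers, with an overlap of knockout replicate 2 and wild type replicate 3 (log2 difference 0.53, SE 0.18, limma adjusted p 0.564). Mepce, which caps 7SK, was higher in every knockout library, at 10.1 to 13.3 TPM against 8.42 to 9.74 TPM (0.29, SE 0.14, adjusted p 0.683). Such a separation upward was found for 8.94% of all genes tested and downward for 4.38%. Larp7, which holds the 3' end of 7SK (-0.13, SE 0.16), and the kinase gene Cdk9 (0.09, SE 0.14) differed by less than their standard errors. The list's median difference was 0.04, as was that of all genes tested.

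RNase MRP RNA had a value in 4 of the 6 libraries. Rmrp had no value in wild type replicates 1 and 3, was at 0.349 TPM in wild type replicate 2, and was at 8.08, 0.648 and 1.20 TPM in the knockout. It was the only 1 of the 5 tested members whose groups did not overlap. That count is set beside the 8.94% of genes given above, and nothing is read from it since the members were chosen from this contrast. Knockout replicate 1 held most of the signal, and without it the mean of Rmrp fell under the abundance filter. The log2 difference of 1.54 (SE 0.58) depended on the pseudocount, with 3.60 at a pseudocount of 0.1 and 0.59 at 5.

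RNase P RNA, which shares most of its protein subunits with RNase MRP, was at 0.299, 2.95 and 2.47 TPM in WT livers and at 7.13, 1.60 and 5.29 TPM in the knockout livers. Knockout replicates 1 and 3 had the highest Rpph1 values and knockout replicate 2 lay among the wild type libraries. The log2 difference was 0.97 (SE 0.53), and 0.46 without wild type replicate 1. Of the 11 genes for proteins of RNase P and RNase MRP, 10 were tested and 0 passed (limma; 0 at an unadjusted p under 0.05). Rpp38 was higher in every knockout library, at 7.75 to 8.56 TPM against 4.24 to 7.54 TPM (0.42, SE 0.19, adjusted p 0.657). Rpp21 (0.32, SE 0.24), Pop1 (-0.13, SE 0.17) and Rpp40 (-0.10, SE 0.17) overlapped between the groups, and Rpp25 was too low to test (at most 0.321 TPM).

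Rmrp and Rpph1 each lie head to head with a protein-coding gene, and these partners were abundant enough to compare. Whether reads were counted by strand was not given in the sources used here, so reads from overlapping transcripts of opposite strands could not be told apart. Ccdc107 starts 281 bases from Rmrp on the opposite strand and was at 108, 119 and 116 TPM in WT livers and at 149, 109 and 96.6 TPM in the knockout livers (log2 difference 0.02, SE 0.17). Its highest value was in knockout replicate 1, as for Rmrp. Parp2, a DNA repair gene 126 bases from Rpph1, was at 6.50, 10.2 and 5.46 TPM and at 10.1, 6.02 and 7.20 TPM (0.08, SE 0.25). Wild type replicate 2 and knockout replicate 1 held the highest Parp2 values. Beside Rn7sk, C920006O11Rik lies 281 bases away on the opposite strand and lay between 1.61 and 3.04 TPM, without a high value in knockout replicate 3 (2.001 TPM).

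The Y RNA genes had the fewest values. Rny1 had no value in any library, and Rny3 had a value in wild type replicate 3 only (1.98 TPM), so neither entered the fit. Missing values were also listed for RNAs that every cell uses, such as 5S ribosomal RNA, so no level can be read from them. The mRNA of the La protein, Ssb, was at 73.3 to 93.3 TPM in WT livers and at 84.3 to 101 TPM in the knockout livers, and Trove2, which encodes Ro60, at 2.76 to 3.32 and at 2.92 to 3.36 TPM. All 5 such genes were tested and 0 passed (limma; smallest adjusted p 0.875, and 0 at an unadjusted p under 0.05), with Ncl, nucleolin, at -0.23 (SE 0.29) and Hnrnpk at 0.05 (SE 0.15).

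In order of level, Rn7s2 stood above Rn7s1 in every library, and Rn7s1 above Rn7sk in 5 of the 6. Knockout replicate 3 was the exception (14.2 against 29.3 TPM). Rn7sk exceeded Rpph1 except in knockout replicate 1 (6.26 against 7.13 TPM). In wild type the values of Rn7s1 and Rn7sk overlapped, while the 3 values of Rn7sk lay above those of Rpph1. The label "abundant" held in these libraries for 7SL in knockout replicates 1 and 2; Rmrp and Rpph1 never passed 8.08 TPM. The 5 members other than 7SL summed to 5.63, 12.7 and 9.87 TPM in wild type and to 21.5, 5.70 and 35.8 TPM in the knockout, and knockout replicate 2, with high 7SL, had the second lowest sum.

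The transcription machinery of these RNAs was compared next. The list of polymerase III subunits held 13 genes and was not complete, as it had no Polr2 gene. All 13 were tested and 0 passed (limma, 0 at an unadjusted p under 0.05), with 5 higher and 8 lower and a median difference of -0.05. Polr3k was at 0.22 (SE 0.19), Polr1c at -0.18 (SE 0.17) and Polr3gl at -0.19 (SE 0.18) on the log2 scale. Of 19 transcription factor genes, 0 passed (limma; 0 higher and 1 lower at an unadjusted p under 0.05), and the median was -0.02. The 1 was Pou2f1, which encodes the octamer-binding factor Oct-1 of snRNA-type promoters, at 1.79 to 2.96 TPM in wild type and 1.15 to 1.68 TPM in the knockout, lower in every knockout library (-0.46, SE 0.19, adjusted p 0.595). Zfp143, another factor of these promoters (-0.25, SE 0.17), Snapc5 (0.25, SE 0.21) and Gtf3c4 (-0.15, SE 0.13) came next. Over the 7 partner and machinery lists together, 75 of 77 genes were tested, and 37 had a positive and 38 a negative difference. Without overlap of the groups, 2 of the 75 were higher (Mepce and Rpp38) and 1 was lower (Pou2f1). Over all genes tested these shares were 8.94% and 4.38%, so nothing is read from the separations. Of all 14155 genes tested, 8125 had a positive and 6030 a negative difference.

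**Figure D4:**
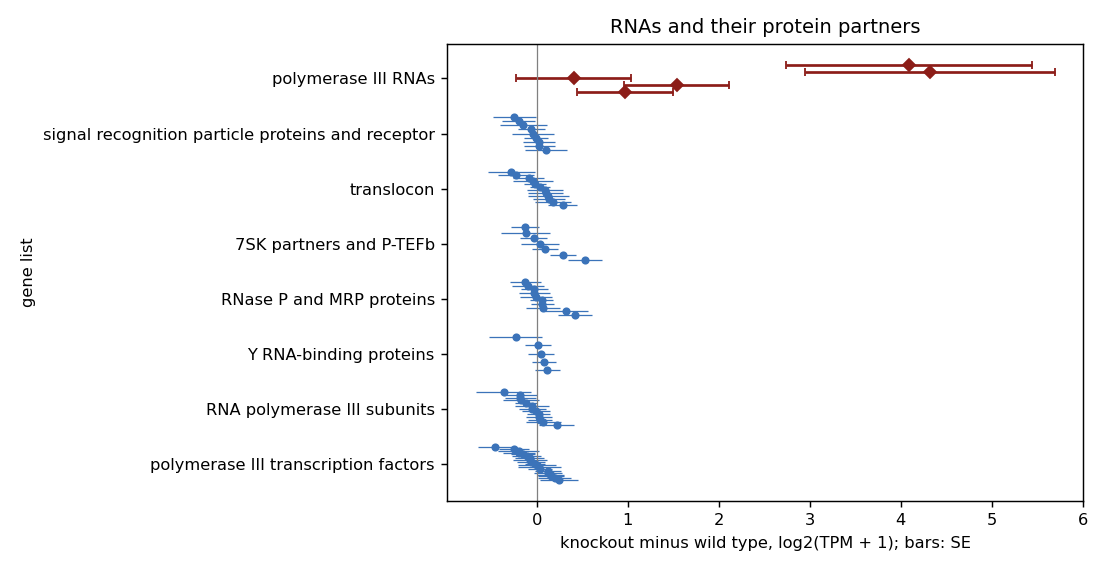
Knockout minus wild type difference on the log2(TPM + 1) scale with its SE (bars) for the 5 tested polymerase III RNAs (red diamonds) and for the tested genes of the 7 partner and machinery lists (blue). The partner genes lie between -0.46 and 0.53, and the 7SL copies at 4.09 and 4.32 with SEs of 1.35 and 1.37.

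Other short or tail-less RNAs are set beside the members, since the labels do not say how RNA was selected for sequencing. Few other polymerase III RNA genes had a value. The 27 genes named for 5S ribosomal RNA and the U6 gene Rnu6, whose RNAs every cell uses, had no value in these files, so a missing value here does not show that an RNA was absent or scarce. Besides, 32 of 370 nuclear transfer RNA genes had one, Vaultrc5 had one in wild type replicate 2 only (0.558 TPM), and Bc1 was at 1.30 to 3.83 TPM in wild type and 2.88 to 5.69 TPM in the knockout. Nuclear transfer RNAs summed to 27.1, 39.7 and 7.60 TPM in wild type and to 27.8, 17.9 and 8.99 TPM in the knockout, a ratio of the knockout mean to the wild type mean of 0.736. The file's gene type column lists 425 transfer RNA genes, more than were named as nuclear. Grouped by that column, the sums were 1767, 1297 and 1397 TPM against 1886, 1684 and 1509 TPM, and the ratio was 1.14. Since the genes named as nuclear reached at most 39.7 TPM, nearly all of this level came from other listed genes. It is therefore not a second estimate of the nuclear transfer RNAs. In neither Bc1 nor either transfer RNA sum were knockout replicates 1 and 2 the highest libraries together.

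Among RNAs made by other polymerases, H/ACA small nucleolar RNAs summed to 123, 88.1 and 74.9 TPM in wild type and to 134, 135 and 160 TPM in the knockout. They were higher in every knockout library, and highest in knockout replicate 3, where 7SL was low. The most abundant of them, Snora20, was at 32.7 to 43.4 TPM in WT livers and at 65.9, 73.9 and 93.5 TPM in the knockout livers. The sum leans on this gene, and the separation was not examined without it. Snora28, the next in level, overlapped between the groups (13.5 to 28.3 against 17.1 to 23.1 TPM). Snora65 did not (2.55 to 8.79 against 9.08 to 10.5 TPM). C/D small nucleolar RNAs were lowest in knockout replicate 1 (86.8 TPM, against 108 to 137 TPM elsewhere). The mitochondrial ribosomal RNAs and Rn18s-rs5 were highest in knockout replicate 2 (33496 and 2394 TPM). In knockout replicate 1 they were at 25363 and 1561 TPM, and in knockout replicate 3 at 22474 and 1045 TPM. Wild type lay at 12636 to 26242 and 1069 to 1446 TPM. Rn18s-rs5 was thus above every wild type library in knockout replicates 1 and 2, as 7SL was, and below them in knockout replicate 3. Its highest library was 2.29 times its lowest. Replication-dependent histone mRNAs, a class that mostly lacks a tail, were highest in knockout replicate 1 (400 TPM). They were at 199 TPM in knockout replicate 2, with wild type at 250 to 269 TPM. Hist1h2bc and Hist1h1c held 234 and 114 TPM of the sum in knockout replicate 1. Whether their transcripts carried a tail was not tested, so this sum may not stand for tail-less RNA. The widest of these class sums, that of nuclear transfer RNAs, differed 5.22-fold between its highest and lowest library, while Rn7s2 differed 117-fold. The part of RNA selection or fragment length in the 7SL values was not tested.

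**Figure D5:**
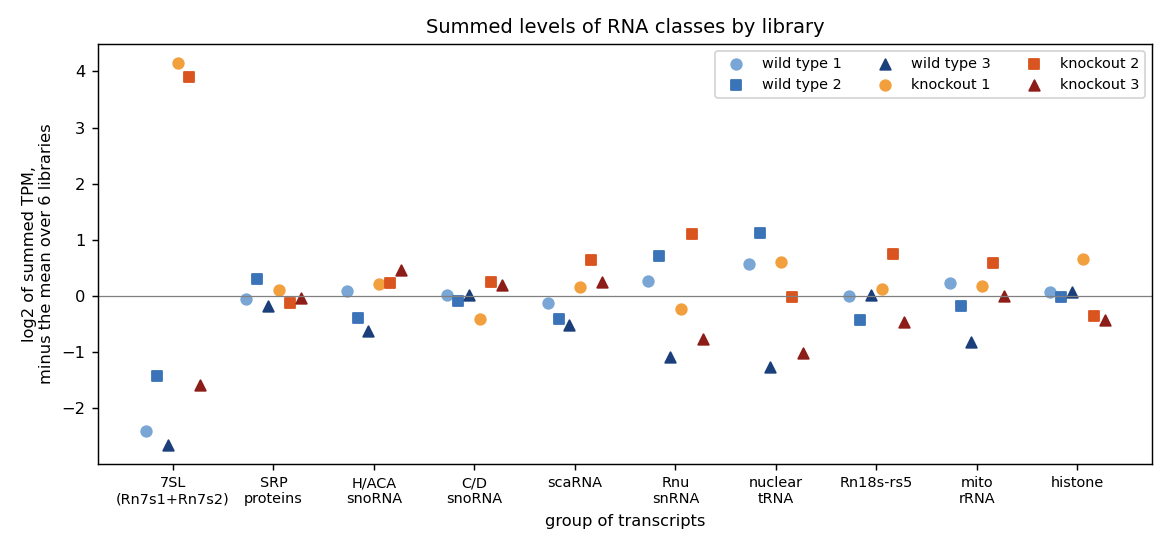
log2 of the summed TPM of each transcript group, minus its mean over the 6 libraries, for 7SL, the signal recognition particle proteins and 8 RNA classes; symbols are the libraries. 7SL stands high in knockout replicates 1 and 2, while the other groups stay within a 5.22-fold span.

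Genes of 250 to 350 bases, a window around the lengths of the 5 tested members that was set after the data were seen, gave a further comparison. Of 1433 such genes other than the members, 107 were tested, and their median range was 1.43 on the log2(TPM + 1) scale. The largest was 3.36, for the immunoglobulin variable segment Igkv5-39. Their summed level was 1099, 1076 and 1073 TPM in wild type and 1351, 1021 and 1109 TPM in the knockout, highest in knockout replicate 1 and lowest in knockout replicate 2, the libraries with high 7SL. Immunoglobulin RNA was part of that high sum. Igkc, a gene of this length window, was at 169 TPM in knockout replicate 1 and at 25.3 to 46.5 TPM in the other libraries. The sum thus does not stand for gene length alone.

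The genes most like the members across libraries were found by Pearson's r of log2(TPM + 1) over the 6 libraries, as a description. Against summed 7SL, the highest of 1017 genes with a mean of at least 5 TPM and a range of at least 1 were Fam213b (r = 0.89), Sult2a5 (0.80), Csad (0.79), Cbr1 (0.78) and Sertad3 (0.78). Fam213b was at 26.3, 19.4 and 19.1 TPM in WT livers and at 40.2, 33.9 and 22.5 TPM in the knockout livers. It had the same order of knockout libraries as 7SL, but its range was 1.04 against 6.79 for Rn7s2. For Rn7sk they were Rpa2 (r = 0.93), Mcm6 (0.91), Fads3 (0.90), Rfc4 (0.87) and Xpo1 (0.87). Rpa2, Mcm6 and Rfc4 serve DNA replication, and all 3 were highest in knockout replicate 3, with Mcm6 at 16.9 TPM there and at 2.11 to 4.001 TPM in the other libraries. With 6 libraries and this many genes ranked, high values of r arise readily, and a single library can carry them. Between members, r was 0.998 for Rn7s1 with Rn7s2, -0.38 for Rn7s2 with Rn7sk, 0.72 for Rn7s2 with Rmrp and 0.76 for Rmrp with Rpph1.

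Markers of other liver cells also differed between libraries. The 6 macrophage markers summed to 126 to 342 TPM in wild type and 228 to 578 TPM in the knockout, and all 6 had a positive difference (limma, 0 past the adjusted threshold, 2 at an unadjusted p under 0.05). Their mean centred level, in log2 units, was highest in knockout replicate 3 (1.16), the library with the highest Rn7sk. It was -0.18 and 0.25 in the libraries with high 7SL. In wild type replicates 1, 2 and 3 it was 0.43, -0.97 and -0.69, so it was lowest in wild type replicate 2, the wild type library with the highest Rn7sk. The 6 endothelial markers summed to 79.7 to 111 TPM and to 111 to 126 TPM. In limma, 0 of them passed the adjusted threshold and 3 were higher at an unadjusted p under 0.05. The 6 stellate cell markers summed to 239 to 299 and 281 to 356 TPM (0 and 2). The 7 lymphocyte markers summed to 4.55 to 9.14 and 6.998 to 9.97 TPM (0 and 2), with 5 higher and 1 lower of the 6 tested. At that unadjusted threshold, 5.12% of all genes tested were higher and 2.91% lower, shares that depend on scaling. Neutrophil markers were lower in the knockout for all 3 that could be tested (sums 19.9 to 48.9 against 14.3 to 19.9 TPM; 0 past the adjusted threshold in limma and 3 at an unadjusted p under 0.05), with Camp at 0 in every library. Cholangiocyte markers (45.4 to 80.7 and 48.9 to 75.6 TPM) and red blood cell transcripts (368 to 436 and 344 to 608 TPM) overlapped between the groups (0 past either threshold). In none of these lists did knockout replicates 1 and 2 have the highest mean centred levels together. The part of cell makeup in the members' values was not tested.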

How the data were processed

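RNA from flash-frozen liver was reverse transcribed, amplified by PCR and sequenced, per the labels' protocols. FastQC, Trimmomatic and the mm10 build are named in the submitters' processing notes; for the aligner, quantifier, annotation, RNA selection and strandedness, no name was given in the sources used here. The deposited values, in columns named TPM per the file headers, are log2 values (-8.88 to 16.6) whose distributions nearly coincide, as quantile normalization leaves, so a shift of all genes cannot be seen. They were back-transformed to TPM, with blanks as 0. The design assumed TPM.

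Genes with a mean of at least 0.5 TPM were tested on log2(TPM + 1) with limma 3.58.1 (R 4.3.3; lmFit, eBayes with trend, two-sided, Benjamini-Hochberg over 14155 genes, threshold 0.05). The pseudocount of 1 understates changes of low genes. The test was checked on simulated data. Members and gene lists were chosen with earlier results of these data known; the 250 kb and 5 kb neighbour windows and the length window were set after the values were seen. Named by rule were the members, up to 4 genes per list with the smallest p, up to 3 genes per RNA class by level, and the 5 most similar profiles. Pole2, Rps29, Nemf, the head-to-head partners, Mt2, Cyp3a41a, Snord98, Igkv5-39, Igkc and Camp were chosen after their values were seen. Alternatives were other pseudocounts, filters, scalings, variance models, RNA classes by gene type, a replicate term and leaving out libraries. No sequence of the members was printed, since no sequence file was used here. One gene that the naming rule picked is not reported here.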

Additional observations from a re-analysis of the deposited data

How the results depend on the processing

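Genes lower in the knockout past the adjusted threshold in limma numbered 1 (Fabp4), but 0 at a pseudocount of 5 and 0 without a filter. When 1 library was left out the count lower ranged from 0 to 3 and the count higher from 0 to 3. The highest counts came without wild type replicate 3 (3 lower, 3 higher), and without knockout replicate 3 there were 2 lower and 2 higher. Without knockout replicate 1 the count lower was 1, but Fabp4 had an adjusted p of 0.0922. Partner and machinery genes past that threshold numbered 0 under every alternative run. The cause of these changes was not tested.

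With the replicate number as a block, 0 genes passed (Fabp4 adjusted p 0.0820, limma), and 484 were higher and 332 lower at an unadjusted p under 0.05. Deviations of same-numbered libraries from their group mean correlated at -0.26, -0.27 and -0.05, and 0 of 3 pairs matched best by number. With 3 libraries a group these values depend on each other, so they cannot show whether same-numbered libraries shared a litter or batch.

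As a share of TPM outside protein-coding genes, 7SL was 0.0691%, 0.165% and 0.0863% in wild type and 5.90%, 4.63% and 0.144% in the knockout. With 1 library left out, differences ranged from 3.14 to 5.91 for Rn7s1, 3.32 to 6.18 for Rn7s2, -0.40 to 0.99 for Rn7sk, 1.46 to 2.02 for Rmrp and 0.46 to 1.45 for Rpph1. Uncalled partner genes that changed sign ranged from -0.212 to 0.0431 (Rpp40), -0.377 to 0.0195 (Srp54a), -0.467 to 0.104 (Ncl), -0.0204 to 0.315 (Srprb), -0.0151 to 0.334 (Ssr3) and -0.0576 to 0.114 (Hnrnpk). With knockout replicate 3 alone in its group, assumed to vary like wild type, Cdk9 was at -0.12 and Srp54a at 0.20. Rmrp gave no value at a filter of 5 TPM or without knockout replicate 1, nor Rpph1 at a filter of 5 TPM. TPM keeps no depth, so what depth limits cannot be given.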
